A study of Mus musculus with 4 samples.

Results

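The regions described here were called open in stem cells of the mouse small intestine and not in those of the large intestine, and they followed each other in long runs along the chromosomes. Peaks of 4 ATAC-seq libraries were merged wherever they overlapped by at least 1 bp, giving 119965 regions, of which 117196 lay on chromosomes 1 to 19. An autosomal region was SISC-only when both small-intestinal lists held it and both large-intestinal lists lacked it, which was true of 9337 (7.97% of 117196). It was LISC-only in the converse case, true of 11919 (10.2%). A run was an unbroken series of regions of one direction, each at most 100 kb from the next. Runs of at least 10 SISC-only regions numbered 25 on 12 chromosomes and held 277 regions, called members below. The members were therefore chosen by the calls of all 4 libraries, and nothing that follows tests those calls.

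ATAC-seq marks open chromatin with a transposase that inserts sequencing adapters where DNA is accessible. SISC and LISC stand for small- and large-intestinal stem cells, with 2 libraries each. All cells came from untreated mice aged 6 to 12 weeks that carried the reporter Lgr5-EGFP-IRES-creERT2, in which EGFP is driven from the locus of the crypt stem cell receptor Lgr5, so each group was sorted by a transgene at one stem cell gene. SISC were sorted as Lgr5-EGFP+/CD24- from stretches of 2 to 3 cm next to the pylorus and next to the cecum. LISC were sorted as Lgr5-EGFP+, with no CD24 gate named, from cecum to rectum. For each library 50000 cells were lysed and the DNA was amplified for 10 PCR cycles. Whether the replicates were different animals is not said in the labels. With 2 libraries against 2 no exact test over libraries can go below a two-sided p of 0.333, so differences between groups are given as values without a test.

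Distal regulatory elements such as enhancers often occur in groups around genes that define a cell type, and groups of strong ones have been termed super-enhancers. In the intestine, regional identity is set in part by transcription factors that differ along its length, among them Gata4 in the proximal small intestine, and stem cells keep some of that regional chromatin. A peak list records where a caller found enrichment over local background, so absence from a list means that no peak was found there, not that the chromatin was closed.

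Only 4 members covered a transcription start listed by RefSeq with its upstream sequence, and those sequences are shown because a run touched a listed start there. Some genes at the runs, among them Gata4, Ccbe1, Slco3a1 and Arg2, had no listed start. Whether a member covered their promoters could not be judged. Each is the stretch of the 250 bases before the start that lay inside the member, written 5′ to 3′ on the strand of the gene in coordinates of mm10 (RefSeq, GRCm38.p6). Capitals mark CG dinucleotides, the sites of vertebrate DNA methylation.
Olfm4, chr14:80000052-80000301, plus strand: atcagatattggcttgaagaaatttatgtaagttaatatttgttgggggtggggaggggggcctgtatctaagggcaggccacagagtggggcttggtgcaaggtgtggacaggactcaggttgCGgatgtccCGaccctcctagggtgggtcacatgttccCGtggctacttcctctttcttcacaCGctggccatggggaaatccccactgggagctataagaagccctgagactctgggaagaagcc
Pid1, chr1:84284646-84284895, minus strand: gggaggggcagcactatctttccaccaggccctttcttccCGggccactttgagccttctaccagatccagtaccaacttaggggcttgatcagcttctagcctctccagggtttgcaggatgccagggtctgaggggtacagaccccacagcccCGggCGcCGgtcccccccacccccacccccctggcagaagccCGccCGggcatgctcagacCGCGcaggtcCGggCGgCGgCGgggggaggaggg
Rfx8, chr1:39720990-39721239, minus strand: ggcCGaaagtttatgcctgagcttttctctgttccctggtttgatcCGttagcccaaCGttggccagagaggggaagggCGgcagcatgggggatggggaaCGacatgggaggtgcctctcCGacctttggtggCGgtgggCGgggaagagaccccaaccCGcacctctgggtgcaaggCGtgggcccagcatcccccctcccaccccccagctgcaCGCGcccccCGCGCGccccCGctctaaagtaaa
Rdh12, chr12:79208757-79208912, plus strand: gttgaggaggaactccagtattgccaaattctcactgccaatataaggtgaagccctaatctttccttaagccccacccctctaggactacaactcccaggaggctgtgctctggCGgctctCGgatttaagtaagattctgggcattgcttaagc
The stretch before Olfm4, which encodes a secreted glycoprotein of crypt stem cells, held 4 CG dinucleotides. Over the 31396 promoters of the RefSeq table the median in 250 bases was 6, with quartiles of 2 and 16. Pid1, named for its phosphotyrosine interaction domain, had 12, and Rfx8, of the RFX family of DNA-binding proteins, had 16. Rdh12, a retinal reductase, had 2 in the 156 bases inside its member and 5 in the full 250. Over the full 250 bases, Olfm4 and Rdh12 were below the median of the table and Pid1 and Rfx8 above it, and none was outside its quartiles.

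The microRNA Mir31 was the only microRNA gene in the span of a run, and its mature forms are shown for that reason, with the seed (bases 2 to 8) in capitals.
mmu-miR-31-5p: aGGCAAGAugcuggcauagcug
mmu-miR-31-3p: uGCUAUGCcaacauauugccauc
miR-31 is known as a regulator of intestinal stem cells. Its hairpin (chr4:88910557-88910662, minus strand) lay inside the lncRNA Gm49890, whose annotated span (88909854 to 88942042) overlapped 4 members, although no member overlapped the hairpin itself.

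The 25 runs were between 125.1 and 394.74 kb long, with a median of 211 kb, and summed to 5.55 Mb. Members took up 174.62 kb of this, or 3.15%, so a run was a string of narrow regions and not a continuous open domain. The 252 gaps between neighbouring members had a median of 12.5 kb and reached from 0.082 to 99.7 kb, and 32 exceeded 50 kb. Of the 50 run ends, 30 were set by a gap over 100 kb and 20 by a LISC-only region.

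The longest run held 16 members. One run held 15, one 14, 3 held 13, 3 held 11 and 16 held exactly 10. Just outside the minimum lay 10 runs of 9 regions, nearest to Cdk15, Cps1, Mme, Itgam, Cpsf6, Bcl11b, Gcnt2, Macroh2a1, Dad1 and Fstl1. Cps1 and Mme encode an enzyme of the urea cycle and a membrane peptidase of the brush border. The run assigned to Dad1 (chr14:53637738-53741621) lay in the T cell receptor alpha locus and held 10 V gene segments. With so many runs at 10 and 9, the set of members depends on where the minimum was placed.

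Members were 2.97% of SISC-only regions. By the same rule, runs of at least 10 LISC-only regions held 581 regions in 44 runs, 4.87% of the LISC-only regions, and the longest had 31. Long runs were thus present in both directions. With all 4 libraries there were more of them on the large-intestinal side. Without SISC replicate 1 there were 42 LISC-only runs of 562 regions against 209 SISC-only runs. The LISC-only and SISC-only runs numbered 75 against 40 without SISC replicate 2. They numbered 145 against 27 without LISC replicate 1 and 132 against 33 without LISC replicate 2. A lone library sets fewer conditions on the regions of its group. With a library left out, the directions were therefore not held to like conditions, and these counts do not show which side had more runs.

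**Figure D1:**
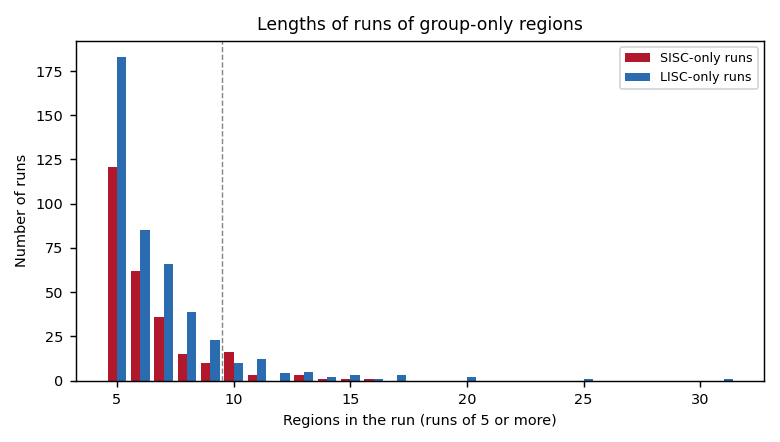
Number of runs (vertical axis) by the number of regions in the run (horizontal axis, runs of 5 or more), for SISC-only runs in red and LISC-only runs in blue, with a dashed line at the minimum of 10. SISC-only runs end at 16 regions and LISC-only runs at 31, and 16 SISC-only runs sit at exactly 10.

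The number of SISC-only runs rested strongly on SISC replicate 1, whose list was the shortest. Without it they held 2665 regions, the longest 25, against 40 runs with 487 regions without SISC replicate 2. In both cases a peak in a lone SISC library sufficed. With each list cut to its strongest 41721 peaks, 2 SISC-only runs with 26 regions were found, beside 3 LISC-only runs with 36, and 3 of the 277 members were still in a run. At equal list lengths 206 members stayed in runs.

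**Figure D2:**
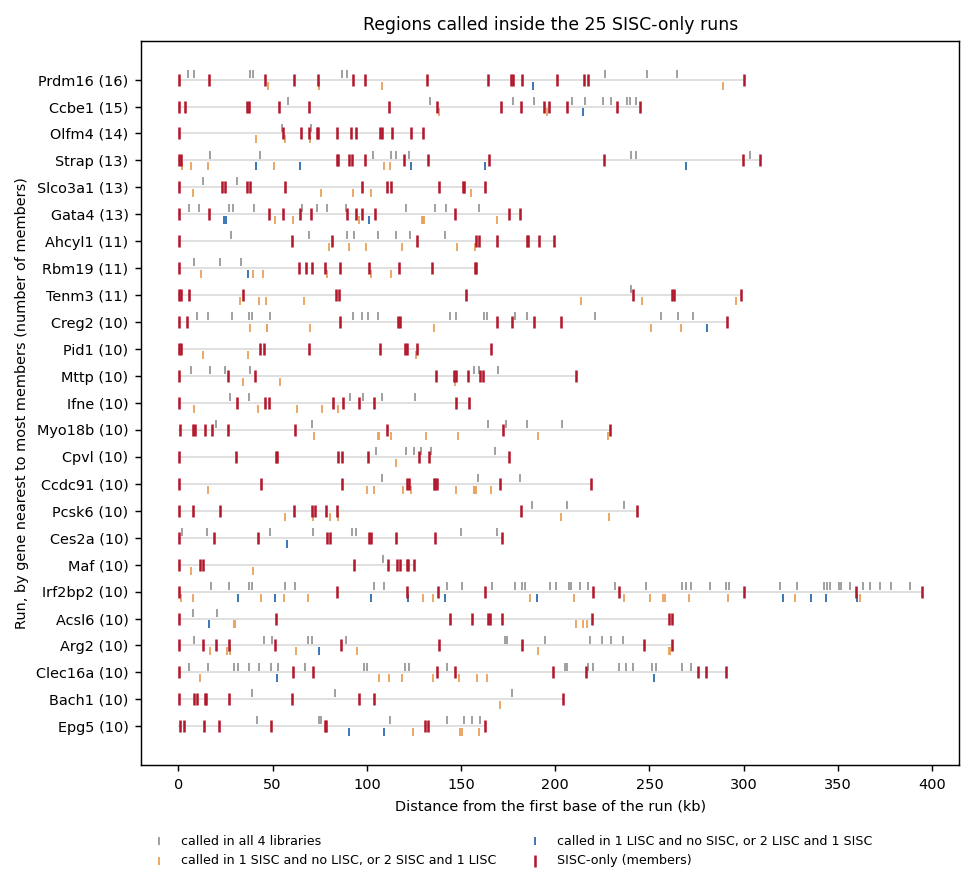
Position of regions inside the 25 runs, in kb from the first base of the run (horizontal axis). Each run has 1 line, named by the gene nearest to most of its members, with the number of members in brackets. The 13 regions called in 1 SISC and 1 LISC library are not drawn. Red ticks are members, grey ticks regions called in all 4 libraries, and orange and blue ticks regions called in more SISC than LISC libraries or the reverse. The Irf2bp2 run is the longest at 394.74 kb and the most filled with grey ticks (41), while the Pid1 run has none.

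The run around the stem cell marker Olfm4 (chr14:79916573-80046885) had 14 members, 3 of them in the gene. The member over the start (chr14:79999824-80001108) had a −log10 q, the caller's significance within its own library, of 231 (SISC replicate 1) and 156 (SISC replicate 2). A member 16.3 kb beyond the far end of the gene (chr14:80039440-80040502) reached 190 and 176. The third strongest, 18 kb before the start (chr14:79981005-79982275), reached 144 and 53.9. The other 11 members were much weaker, from 5.81 to 41.9 in replicate 1 and from 5.26 to 44.1 in replicate 2. Members 0.04 and 0.76 kb beyond the far end of Olfm4 had 18.5 and 5.26, and 31.7 and 21.7. Outside the members the span held 2 regions called in all 4 libraries. One, 13.0 kb before the start (chr14:79986658-79987284), had 64.5 and 68.7 in SISC against 21.1 and 12.0 in LISC. The other (chr14:79971323-79971742) had 5.12 and 24.9 against 6.64 and 7.46, so its groups overlapped.

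Olfm4 was the only one of 19 measured stem cell and Wnt target genes with a member within 100 kb. In this list, which also held Lgr5, Ascl2, Smoc2 and Axin2, a region at a gene end was called for 19, 18, 17 and 18 genes in SISC replicates 1 and 2 and LISC replicates 1 and 2. Over all 20665 autosomal protein-coding genes a gene end was called for 66.7%, 68.2%, 66.2% and 66.1% in the same order. The end of Lgr5 was called in all 4 libraries. Of all those genes, 126 (0.61%) had a member within 100 kb, and 1 of 19 is 5.26%, a share that 1 gene makes.

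Among regulators of transcription, Gata4, a zinc-finger factor of the proximal small intestine, lay in a run of 13 members (chr14:63167049-63348530). Gata4 was the nearest gene to 9 members, of which 8 lay in its body. The strongest (chr14:63260877-63261799), 9.91 kb inside the gene's end, reached 148 by −log10 q in SISC replicate 1 and 60.5 in replicate 2. A member of 1711 bp over that end (chr14:63270450-63272160) had 28.9 and 58.6, and neither LISC library had a peak at an end of Gata4. The remaining members of the run had from 6.19 to 53.4 and from 7.91 to 63.9, and included regions in Fdft1, which makes squalene in sterol synthesis, and in Neil2, a DNA repair glycosylase. The span also held 13 regions called in all 4 libraries, and the nearest LISC peak to any member was between 0.129 and 9.51 kb away. The Gata4 locus was thus not without LISC peaks. The shared region 15.3 kb beyond the gene (chr14:63287015-63288332) had 208 and 190 in SISC against 13.6 and 6.94 in LISC. Of 9 measured factors of the small intestine (Gata4, Gata5, Gata6, Pdx1, Onecut2, Maf, Creb3l3, Nr1h4 and Vdr) Gata4 was the one at a run, and a gene end was called for 8, 8, 7 and 7 of them in the order above.

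The longest run was in Prdm16 (chr4:154410243-154710583), a zinc-finger regulator known from brown fat and blood stem cells, whose body held 15 of the 16 members. Its strongest members had a −log10 q of 94.7 and 109 (chr4:154592188-154593451), 61.8 and 97.1 (chr4:154470498-154472121) and 55.0 and 48.9 (chr4:154502330-154502947) in SISC replicates 1 and 2. The member at chr4:154484252-154484499 had 6.08 and 4.52, so strength within the gene ranged widely. Not every region of Prdm16 leaned the same way: a shared one (chr4:154414856-154415520) had 12.0 and 12.8 in SISC against 141 and 32.7 in LISC.

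A run of 10 members lay in a stretch without protein-coding genes between Wwox, a tumour suppressor with WW domains, and the transcription factor gene Maf (chr8:115414088-115539187). The member closest to Wwox lay 61.4 kb from it and the one closest to Maf 164 kb, so Maf did not count as a gene at a run. The strongest had a −log10 q of 86.0 and 126 (chr8:115531214-115531746). Its neighbour at chr8:115524626-115525555 had 76.2 and 96.5. The 1 shared region of the span (chr8:115522232-115522901) had 295 and 221 in SISC against 65.6 and 29.8 in LISC.

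Further runs lay near regulators. The run by Bach1, a heme-binding repressor of oxidative stress genes (chr16:87757956-87962181), had 6 members nearest to Bach1, all in the span of the lncRNA Gm32925, and 4 nearest to the glutamate receptor gene Grik1. Its strongest member (chr16:87853454-87854392) had 108 in SISC replicate 1 and 64.3 in replicate 2. The run by Irf2bp2, a corepressor (chr8:126557499-126952238), was the longest in bases and had the lowest median −log10 q of all runs in SISC replicate 1, at 7.85, beside 19.9 in replicate 2. It had 10 members and a strongest one of 22.6 and 35.9 (chr8:126678406-126678892). It ended in the weakest member of all by mean rank, in Rbm34, which encodes an RNA-binding protein (chr8:126951903-126952238; 4.08 and 5.57). The run by Creg2, a secreted glycoprotein gene (chr1:39430032-39721278), reached the start of Rfx8, where the member (chr1:39720654-39721278) had 22.6 and 24.4. It also had members at the ends of Creg2 (14.0 and 53.4) and of Cnot11, a subunit of the CCR4-NOT deadenylase, with 8.62 and 14.0, and 6.73 and 8.18. The strongest member there (chr1:39515178-39516044), 19.7 kb from Cnot11, had 43.6 and 48.9.

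Mttp, which loads lipid onto apolipoprotein B for chylomicron assembly, held 6 of the 10 members of its run (chr3:137974423-138185848). The strongest of them (chr3:138121489-138122319) reached 56.6 by −log10 q in SISC replicate 1 and 49.4 in replicate 2, and the weakest (chr3:138111079-138111624) 4.59 and 5.95. A shared region in the same gene (chr3:138133336-138134311) had 140 and 123 in SISC against 7.21 and 6.43 in LISC. Ends of Mttp were called in all 4 libraries. Mttp was the 1 of 25 measured absorptive enterocyte genes with a member within 100 kb. A gene end was called for 21, 21, 14 and 15 genes of that list (84%, 84%, 56% and 60%) in SISC replicates 1 and 2 and LISC replicates 1 and 2, beside the shares over all genes given above.

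Ces2a, a carboxylesterase that hydrolyses lipids and drugs, had members at its end (chr8:104740856-104741753; −log10 q of 17.4 and 29.4) and 0.31 kb beyond it (chr8:104741945-104742735; 18.1 and 17.5). The strongest member of that run (chr8:104811605-104812244) lay 16.2 kb from the related gene Ces2b and had 80.8 and 101. Ciao2b, of iron-sulfur cluster assembly, had one at its end (chr8:104639944-104640368) with 3.83 and 8.79. Slco3a1, an organic anion transporter, held all 13 members of a run (chr7:74386295-74549370). The strongest of these had 97.5 and 125 (chr7:74496851-74497618), 91.1 and 131 (chr7:74408446-74410514) and 27.7 and 87.0 (chr7:74442174-74443449). The second of them was the widest of all members at 2069 bp. Cpvl, a serine carboxypeptidase, was nearest to 9 of 10 members of its run (chr6:53853423-54029101), the strongest with 50.9 and 63.9 (chr6:53937627-53938189).

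The run by Arg2, the mitochondrial arginase (chr12:79122849-79384723), had members in Arg2, in Zfyve26 and in the recombination gene Rad51b. It also had members at both retinal reductase genes, 0.12 kb from Rdh11 (chr12:79173796-79174118; 34.2 and 31.0) and over the start of Rdh12 (chr12:79208757-79209193; 8.03 and 12.1). Its strongest member (chr12:79149381-79150125) had 52.9 and 32.4. Pcsk6, a proprotein convertase that cleaves growth factor precursors, held 8 members of its run (chr7:65873492-66117456), and the member at chr7:65934316-65935297 was among the strongest of all with 161 and 191. Ahcyl1, a partner of the inositol trisphosphate receptor, was nearest to 7 of 11 members (chr3:107490092-107689627). On chromosome 18, the run by the autophagy gene Epg5 (chr18:77973040-78135707) had 5 members in Epg5, 3 in the urea transporter gene Slc14a1 and 2 in the sialic acid-binding lectin gene Siglec15. All 10 lay in gene bodies, and the strongest (chr18:77975501-77976123) had 51.4 and 23.2.

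Ifne, an interferon expressed by epithelia, was nearest to 8 of 10 members of its run (chr4:88830609-88985019), which also spanned Ifna1, Ifna4 and Ifna5. A member 0.94 kb from Ifne reached 11.9 by −log10 q in SISC replicate 1 and 17.4 in replicate 2 (chr4:88878228-88878597). The strongest member (chr4:88917780-88918608) had 121 and 117 and lay 7.12 kb from the Mir31 hairpin printed above and 37.6 kb from Ifne. The member closest to Mir31, at 1.46 kb (chr4:88912124-88912667), had 14.5 and 25.3. On the other side of the hairpin, at 16.8 kb, a region called in both SISC libraries and LISC replicate 1 (chr4:88892887-88893763) had 159 and 169 against 6.08. Both of these members were closer to Mir31 than to any interferon gene.

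The run at the cytokine genes (chr11:54093092-54354961) had 3 members nearest to Csf2 and 2 nearest to Il3, growth factors of myeloid cells. The member in Csf2 (chr11:54248653-54249551) had 14.0 and 31.0, and the one 0.22 kb from Il3 (chr11:54264630-54264863) had 11.9 and 10.8. Stronger members lay in the same run inside Acsl6, a long-chain acyl-CoA synthetase, led by chr11:54353262-54353908 with 61.2 and 52.2. The run in Clec16a, a regulator of mitophagy (chr16:10422934-10713932), had 7 members in Clec16a and 2 in Ciita, the transactivator of MHC class II genes. The strongest was in Ciita (chr16:10483152-10484770; 36.7 and 56.6). A member inside Nubp1, of iron-sulfur cluster assembly, and 0.52 kb from its end had 23.7 and 49.6 (chr16:10422934-10423935).

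Markers of immune cells were looked at beside the interferon, cytokine and Ciita regions. Ptprc, Cd3e, Csf1r and Itgae had no called end in any library, while Itgam had one in both SISC libraries and Cd68 in both SISC libraries and LISC replicate 1. None of these 6 lay within 100 kb of a member. Paneth cell genes, which neighbour stem cells at the crypt base, had a called end for 5, 5, 2 and 3 of 8, and none was at a run. CD24, excluded in the SISC gate, is known as a surface marker of Paneth cells. The part of other cell types in these runs was not tested. Lists of large-intestinal epithelium, goblet, enteroendocrine, tuft and stromal genes (14, 8, 10, 6 and 8 measured) likewise had no gene at a run.

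The remaining runs lay at genes of signalling and other functions. Ccbe1, which promotes lymphatic growth, and Pmaip1, the pro-apoptotic protein Noxa, shared a run of 15 on chromosome 18 (chr18:66233318-66478451), with 8 members nearest to Ccbe1 and 7 to Pmaip1. The strongest had a −log10 q of 77.3 and 65.2 (chr18:66269182-66270079), 71.4 and 60.0 (chr18:66301999-66303728, 1730 bp wide) and 47.6 and 46.4 (chr18:66404356-66404996). A member 0.16 kb from Pmaip1 had 20.5 in replicate 1 and 4.20 in replicate 2 (chr18:66465721-66466229). The run by Strap, a binding partner of TGF-β receptors (chr6:137632116-137941399), had 6 members nearest to it, 3 nearest to the deoxyribose-phosphate aldolase gene Dera, 2 nearest to Eps8, which caps actin in microvilli, and 2 nearest to Slc15a5, of the peptide transporter family. Its strongest members had 76.0 and 123 over an end of Strap (chr6:137751354-137752426), 65.5 and 68.9 (chr6:137716719-137717332) and 63.4 and 61.2 (chr6:137857317-137858120).

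Tenm3, a teneurin of neuronal wiring, held all 11 members of its run (chr8:48603308-48902379). One of them (chr8:48864936-48865917) was the strongest member of all by mean rank, with 226 and 175 and the authors' fold enrichment of 15.6 and 13.3. It lay 639 kb from the nearer end of the gene, and no library had a peak in the promoter window listed for Tenm3. Rbm19, a nucleolar protein of ribosome assembly, was nearest to all 11 members of another run (chr5:120094677-120252937), the strongest with 135 and 164 (chr5:120228755-120229455). The run nearest to Ccdc91, a protein of vesicle transport (chr6:147652123-147871485), contained no protein-coding gene, and its strongest member had 68.9 and 126 (chr6:147822298-147823407) at 190 kb from Ccdc91. The run in Myo18b, an unconventional myosin (chr5:112850984-113080147), extended into Grk3, a kinase of G protein-coupled receptors. Its strongest member had 71.8 and 51.6 (chr5:112850984-112852210).

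The run by Pid1 and the Notch ligand-like gene Dner (chr1:84241286-84407326) stood by itself in 1 respect. Its span held no region called in a LISC library, and the nearest LISC peak to its members was between 327 and 492 kb away, against at most 108 kb in the other 24 runs. The member over the listed Pid1 start printed above (chr1:84284226-84285162) lay inside the annotated gene, 54.7 kb from its nearer end. It reached 82.6 by −log10 q in SISC replicate 1 and 64.7 in replicate 2. The 10 members ranged from 10.6 to 82.6 and from 7.80 to 65.4. The start of Dner, which lay outside the run, was likewise called in both SISC libraries and neither LISC library.

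Members varied widely in −log10 q and less in fold enrichment. The −log10 q ranged from 3.11 to 231 with a median of 18.5 in SISC replicate 1, and from 4.17 to 191 with a median of 22.4 in replicate 2. The authors' fold enrichment at the summit, over local background of the same library, had medians of 4.45 and 4.42. It ranged from 1.88 to 15.6 in SISC replicate 1 and from 1.73 to 14.1 in replicate 2. Within their own lists the members had a median percentile of 31.9 and 40.1, so most ranked below the middle. Both libraries put 54 members above the median of the list and 53 below the 25th percentile. The highest percentiles were 89.0 and 89.3.

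**Figure D3:**
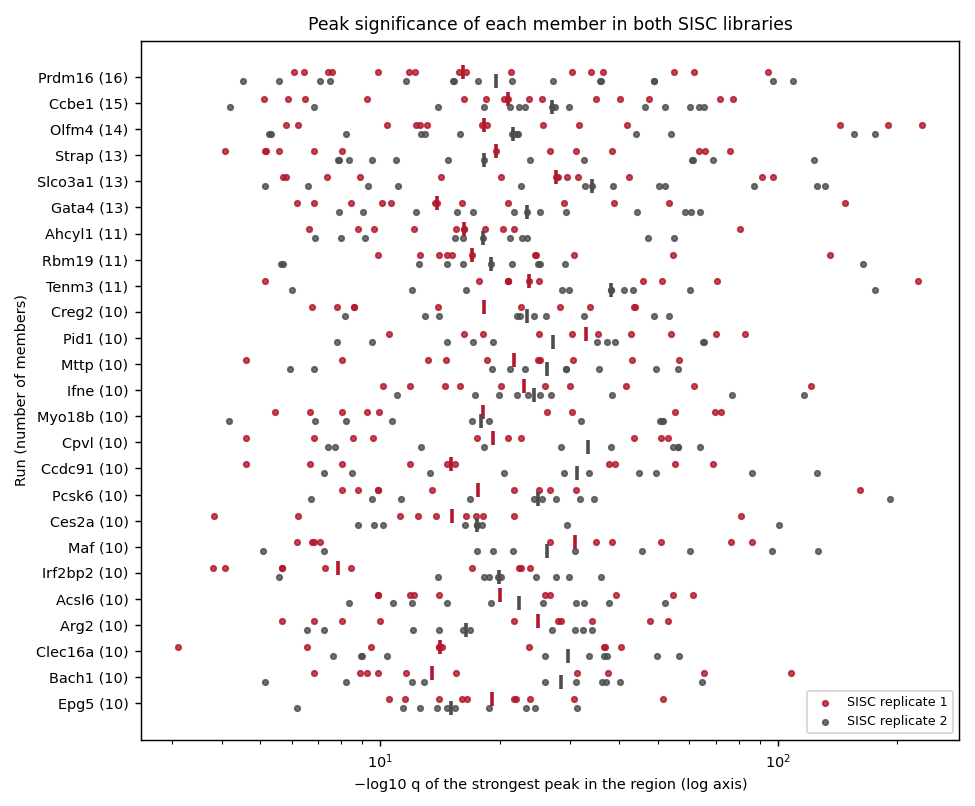
The −log10 q of the strongest peak in each member (log axis) for SISC replicate 1 in red and replicate 2 in grey, by run, with a vertical bar at the median of each. Most runs mix weak and strong members, with medians from 7.85 (Irf2bp2) to 32.9 (Pid1) in replicate 1, and Tenm3, Olfm4 and Pcsk6 hold the highest points.

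The same measure was higher in replicate 1 for 116 members and in replicate 2 for 161. Pearson's r between the members' percentiles in the 2 lists was 0.766, against 0.713 for other SISC-only regions and 0.913 for regions shared by all 4 libraries. These describe regions of 2 libraries and have no test. Other SISC-only regions had lower median percentiles (23.7 and 32.1), and 13.5% and 19.5% of them were above the list median against 24.5% and 30.7% of members. The members were also wider, with a median of 566 bp (200 to 2069) against 455 bp. Regions of long LISC-only runs were of like width (562 bp, against 481 bp for other LISC-only regions), and shared regions were wider (887 bp). In LISC replicates 1 and 2 the regions of long LISC-only runs had median percentiles of 38.9 and 41.0. Other LISC-only regions had 32.4 and 32.6. Pearson's r between the LISC lists was 0.818 in the long runs against 0.742 in the others. Higher ranks and greater width were thus common to long runs of both directions.

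**Figure D4:**
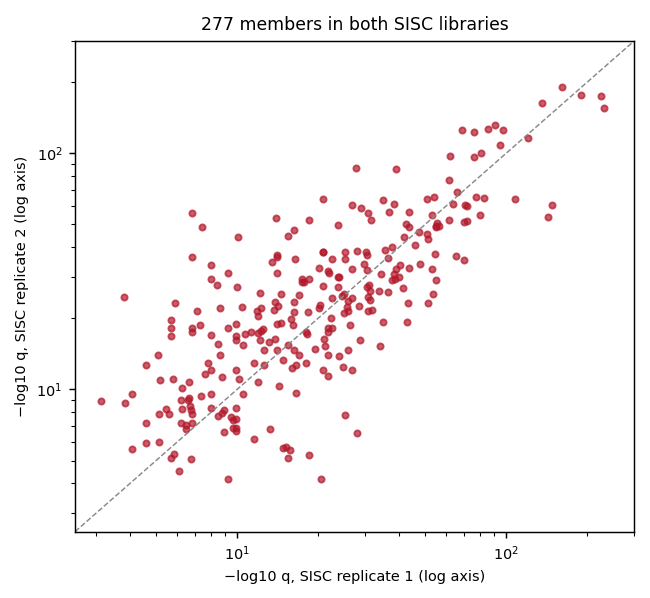
The −log10 q of each of the 277 members in SISC replicate 1 (horizontal, log axis) and SISC replicate 2 (vertical, log axis), 1 point per member, with a dashed line where both are equal. More points lie above the line (161) than below it (116), and the strongest members are strong in both libraries.

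Most members were far from gene ends, much as other SISC-only regions were. A member lay within 1 kb of an end of a protein-coding gene in 20 cases, or 7.22% (95% exact binomial interval 4.47 to 10.9). The share was 7.11% (6.59 to 7.66) for the 9060 other SISC-only regions, 3.27% (1.98 to 5.06) for regions of long LISC-only runs and 24.3% for shared regions. Intervals cover counting error only and treat regions as independent, which neighbours in a run are not. The bodies of protein-coding genes held 154 members, 55.6% (49.5 to 61.5), against 54.4% of other SISC-only regions and 54.7% in long LISC-only runs. The median distance to a gene end was 25.8 kb for members, 17.4 kb for other SISC-only regions and 45.6 kb in long LISC-only runs. Any RefSeq gene, coding or not, covered 196 members, and a lncRNA without a coding gene covered 36, while 81 lay in no annotated gene.

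Gene starts were judged from RefSeq windows reaching 250 bases before and 50 bases after the start. Such windows were present for 53 genes at the runs and absent for others, Gata4 among them. In 32 of these (60.4%) all 4 libraries had a peak, against 61.6% of 16457 protein-coding genes. Only SISC libraries, and both of them, had one at 5 starts (9.43% against a background of 1.03%): Olfm4, Rfx8, Dner, Pid1 and Rdh12. The runs were chosen by the same calls, so nothing is read from this share. No start at a run was called in both LISC libraries alone. The start of Acsl6 was called in both SISC libraries and LISC replicate 2. No library had a peak at 15 starts (28.3% against 34.2%), among them Tenm3, Csf2, Il3, Ifne and the interferon alpha genes.

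The sequences of 10 motifs were searched on both strands of the 300-base windows of the 4 listed promoters covered by members. The FOX motif (TGTTTAC) was found at Rfx8 and is in 3.71% of the 31396 windows of the table. The GATA motif (AGATAAG, in 3.03% of windows) had no match, nor had the HNF4 motif (CAAAGTCCA, 0.487%). The same was true of CDX (TTTATNG, 10.9%) and of AP-1 (TGANTCA, 7.84%). TCF/LEF (ATCAAAG, 3.76%), ETS (GGAAGTG, 11.1%) and KLF (GGGTGTGG, 3.57%) were not matched either. Longer motifs of HNF1 and of the CTCF core, in 0.00956% and 0.0127% of windows, were also unmatched. A match is only a string of letters. The windows had 52.3% G and C at Olfm4, 69.7% at Pid1, 67.7% at Rfx8 and 45.7% at Rdh12, beside a median of 53% in the table.

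The spans of the runs held 386 regions besides the members. All 4 libraries had called 210 (54.4%), against 48.4% of regions outside the spans and 48.3% of all autosomal regions. With the members included, 31.7% of all regions in the spans were shared. The rule itself lowers that share, because no member can be a shared region. The rule lets no LISC-only region into a span and sets no direct condition on regions called in part of a group. Of those, 163 were called in more libraries of one group than of the other. SISC libraries led in 134, or 82.2% (95% exact binomial interval 75.5 to 87.7), and LISC libraries in 29, against 53.4% SISC-led among 35788 such autosomal regions. The interval treats regions as independent, which neighbours in a run are not. These calls come from the same 4 lists, in spans chosen for SISC-only calls. The SISC-led share is therefore not independent of that choice, and nothing is read from it. The kind most often seen was a peak in 1 SISC library alone (93 regions). A peak in both SISC libraries and 1 LISC library followed (41 regions). Runs differed in this: the Ccdc91 run had 10 SISC-led regions and 0 LISC-led, while the Strap run had 6 and 5 and the Irf2bp2 run 17 and 10. With lists cut to their strongest 41721 peaks, which left 2 runs, the SISC-led share was 36.4%.

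Shared regions in the spans were also ranked, by −log10 q within each library among all 56633 autosomal shared regions. The median percentile of the 210 was 52.6 and 55.0 in SISC replicates 1 and 2, and 41.3 and 42.1 in LISC replicates 1 and 2. Both SISC libraries ranked 101 of them (48.1%) above both LISC libraries, against 30.5% of all shared regions. The converse held for 36 (17.1%), against 25.5%. The median difference between group means was 5.11 percentile points in the spans, 3.79 over 488 shared regions within 250 kb outside them, and 0.725 over all shared regions. Of the flanking regions 42.4% ranked higher in both SISC libraries. Ranking by fold enrichment in place of −log10 q brought the difference to 0.386 and the share to 31.0%, beside −0.238 and 26.1% over all shared regions, and 32.4% then ranked higher in both LISC libraries against 27.5%. By fold enrichment the flanking regions had a difference of 0.823, above that of the spans, with 29.3% higher in both SISC libraries and 25.2% higher in both LISC libraries.

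By run, both SISC medians exceeded both LISC medians in 20 of the 24 runs with a shared region. In the Myo18b run, 6 shared regions had medians of 56.0 and 61.5 in SISC against 14.1 and 9.07 in LISC. One of them, by Grk3 (chr5:113014265-113016230), had a −log10 q of 123 and 89.9 against 2.64 and 3.65. The Irf2bp2 run, with 41 shared regions, was the one where both LISC medians (49.6 and 55.6) exceeded both SISC medians (42.7 and 46.5), although the median of its differences per region was 0.85 toward SISC. In that run a shared region near Tomm20, of the mitochondrial import receptor (chr8:126923522-126925019), had 10.5 and 16.5 in SISC against 117 and 53.1 in LISC. In the Clec16a run one (chr16:10663567-10664860) had 69.0 and 36.3 against 293 and 174. By −log10 q the shared regions in the spans ranked higher in SISC on the whole, but not by fold enrichment. Single regions leaned strongly the other way. These ranks come from the same 4 lists, in spans chosen for SISC-only calls. They are therefore not independent of that choice, and nothing is read from them.

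**Figure D5:**
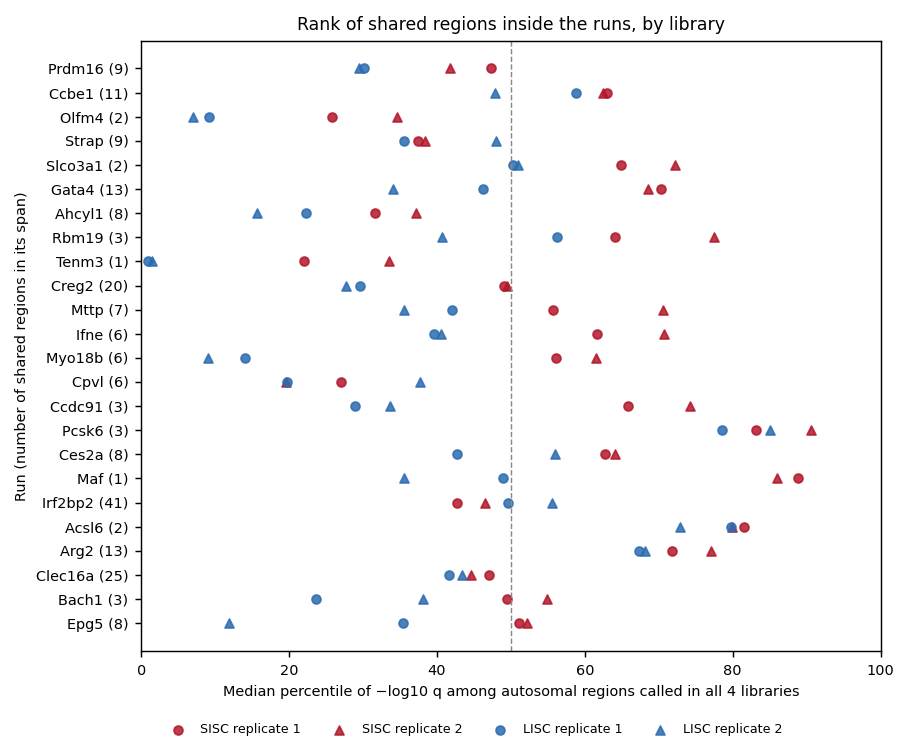
Median percentile of −log10 q (horizontal axis) of the shared regions inside each run, among all autosomal shared regions of the same library, with SISC in red, LISC in blue, circles for replicate 1 and triangles for replicate 2, and the number of shared regions in brackets. In 20 of 24 runs both red symbols lie right of both blue ones, and in Irf2bp2 both lie left.

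Peaks in LISC were usually not far from a member. The nearest LISC peak was a median of 10.4 kb away in LISC replicate 1 and 9.73 kb in replicate 2, and it was within 1 kb of 17 and 22 members. Within 250 kb outside the spans lay 81 further SISC-only and 61 LISC-only regions.

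The 4 lists held 83443 and 93220 peaks in SISC and 91313 and 88739 in LISC, covering 49.9 to 63.3 Mb. Read depth is unknown. Regions on the Y chromosome were called in replicate 1 of each group (6 and 8) and in neither replicate 2, and the members are all autosomal.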

How the data were processed

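Peak lists of 4 libraries (2 SISC, 2 LISC), 1 list per library, were analysed. The build was mm10, and the tools named in the submitters' processing notes were MACS2 2.2.7.1, Bowtie2 2.3.4.1, cutadapt 3.4, bedtools and Picard. How reads were shifted for Tn5, how duplicates were handled and how peaks were thresholded is not given in the sources used here. Each peak deposited by the authors has a fold enrichment, which is a ratio to local background, together with −log10 p, −log10 q, a summit offset in bp and a score derived from −log10 q. Such values vary with sequencing depth, which is unknown here, so they were used as within-list ranks or shown beside each other.

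Peaks overlapping by at least 1 bp were merged, and the value of a region is that of its strongest peak by −log10 q. Genes and sequences came from RefSeq (GRCm38.p6, the coordinates of mm10). The gene table carries no strand, so distances are to the nearer of both annotated ends of a protein-coding gene. A run is called by the gene nearest to most of its members, and a list gene is at a run when its body or an end is within 100 kb of a member. Named were every run, its genes, its strongest member (the 3 strongest in the 5 longest runs), the widest, strongest and weakest members and all within 1 kb of a gene end. Some items this rule selects are left out of the text. Shared regions and Mir31 were named after their values were seen. The planned motif search at members needed a genome and was replaced by promoters. Members, lists and rules were chosen with earlier results of these data known, and no test was made. The work was done in Python 3.11.15 (pandas 2.3.3, numpy 2.4.6, scipy 1.17.1, matplotlib 3.10.9). The merge gave the same regions as bedtools 2.31.1, and the search for runs was tested on simulated data. Alternatives covered overlap, gap, run length, list length, ranking and each library left out.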

Additional observations from a re-analysis of the deposited data

Results flagged for a closer look

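The rule left out the sex chromosomes. On the X chromosome 215 regions were SISC-only and 267 LISC-only, and the longest runs there held 5 and 10 regions, so no SISC-only run reached the minimum of 10. Regions on the Y chromosome were called in SISC replicate 1 (6 regions) and LISC replicate 1 (8 regions) and in neither replicate 2.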

How the results depend on the processing

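Of 104 recomputed values, 53 moved by less than their limit and 51 moved. Most are counts or shares, which have no sign to change, and the rank difference stayed positive throughout. The SISC-led share of partly called regions went from 82.2% to the minority given below for the strongest peaks. Requiring a peak to cover 50% of a region put 3.64% of SISC-only regions in runs, made 22.1% of the regions in the spans shared, put 48.5% of members in gene bodies and gave shared regions a rank difference of 3.91. Equal list lengths gave 3.58. Gaps up to 200 kb gave 41 runs, 493 regions, 5.28%, 40.8% shared and 3.87, and gaps up to 50 kb gave 12 runs, 139 regions, 1.49%, 24.5%, 12.0 and 88.7% of partly called regions led by SISC. A minimum of 12 gave 6 runs with 84 regions, and a minimum of 8 gave 50 with 487. The strongest 41721 peaks per list gave 2 runs, 26 regions, 0.564%, 46.5% shared, 84.6% in bodies, 11.5% near ends, 36.4% SISC-led, a rank difference of 3.77 and 33.3% ranked higher in both SISC libraries. Summit windows of 100 bp either side gave 1.89% and 24.6%. Ranking by fold enrichment gave 0.386 and 31.0%, and this, the rank comparison and the SISC-led share were added after seeing the data. Leaving out each library gave 27 to 209 runs, 322 to 2665 regions, a longest run of 16 to 25, 2.57 to 13.1% in runs, 35.6 to 48.3% shared, 52.7 to 56.7% in bodies, 4.35 to 10.3% near ends, rank differences of 3.09 to 8.03 and 52.1 to 60.5% ranked higher (41.3 to 42.9% over all shared regions). The cause was not tested, except that a lone library sets fewer conditions on a region. Of the 277 members, 242 stayed SISC-only at 50% cover, 252 at equal lengths and 47 among the strongest peaks. No paired analysis was possible because the labels do not say that a replicate number marks a shared animal or batch. No result comes from a test. Unknown depth means that a region missing from a list may have been missed.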
